A study of Saccharomyces cerevisiae with 25 samples.

Results

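The genes described here are 10 genes of glucose uptake and glucose sensing in budding yeast: the hexose transporter genes HXT1, HXT2, HXT3, HXT4, HXT5, HXT6 and HXT7, the membrane glucose sensor genes RGT2 and SNF3, and STD1, which encodes a regulator in the same pathway. They were chosen by name from the 6650 named genes of the table, of which 5383 were listed with a value somewhere in the course. Of the 10 genes, 9 were listed in 1 library or more, HXT6 in none, and 5 (HXT1, HXT2, HXT3, HXT7 and STD1) had values in enough libraries to enter the tests.

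In yeast, the Hxt proteins carry glucose across the plasma membrane by facilitated diffusion, and the family is divided by affinity. Hxt1 and Hxt3 have low affinity and serve cells in plentiful glucose, whereas Hxt2, Hxt4, Hxt6 and Hxt7 have higher affinity and their genes are repressed when glucose is plentiful. The sensors Rgt2 and Snf3 are relatives of the transporters that do not carry glucose, and glucose binding to them leads to the breakdown of Mth1 and Std1, which help the repressor Rgt1 to hold HXT genes off.

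The study followed 1 course of the haploid laboratory strain BY4741 carrying a YFP reporter behind the PHO84 promoter and an overexpressed PHO90, which encodes a phosphate transporter of low affinity. All 25 libraries carry both changes, so no unmodified strain is compared here, and the labels do not name the promoter that drives PHO90. The library at 0 min came from cells in high phosphate. After a wash and a move to medium without phosphate, 24 libraries were made between 15 and 360 min, at intervals of 15 min. The labels do not name the carbon source or its concentration. Per the labels' protocols, total RNA was extracted in 96-well format with a column kit, and the cDNA of each sample was read on an Illumina HiSeq instrument.

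Levels are RPM, the reads of a gene per 1000000 reads of its library, or their log2, as deposited. Windows of 8 libraries stand in for replicates: the early window from 15 to 120 min, the middle window from 135 to 240 min and the late window from 255 to 360 min. Nothing in the labels points to separate cultures, so p-values measure only the spread between libraries of this course. Reads in listed genes ranged from 450744 at 15 min to 2271193 at 90 min, and the median was 1382080 early and 612972 late. These read numbers, and all others given here, take the lowest listed level of each library as 15 reads, which is a setting and not a deposited value. The lowest listed level ranged from 6.60 to 33.3 RPM, and a missing value means a level under that floor. Ribosomal protein genes took 40.1% of reads at 0 min, 31.3% to 36.8% early, 9.17% to 30.9% in the middle window and 6.80% to 12.6% late. The median tested gene was 0.45 higher (log2) late than early, 0.28 higher in the middle than in the early window and 0.18 higher late than in the middle window. PHO90 lay at 1636 RPM at 0 min and at 2153 RPM or more in every later library. All 6 markers of mating type a, the type of BY4741, were listed in every library, with summed levels of 2538 RPM at 0 min, 3032 to 3410 RPM early, 3445 to 4580 RPM in the middle window and 4036 to 4790 RPM late. Of 4 markers of mating type alpha, none was listed in every library, MF(ALPHA)2 was listed in 0, MF(ALPHA)1 in 2, SAG1 in 7 and STE3 in 22, and their summed level was at most 69.7 RPM.

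The genes lie on 4 chromosomes of build R64, each as 1 coding exon that overlaps no other annotated gene. HXT4 (YHR092C, 287081 to 288811), HXT1 (YHR094C, 290913 to 292625) and HXT5 (YHR096C, 294669 to 296447) are neighbours on the minus strand of chromosome VIII. HXT7 (YDR342C, 1154216 to 1155928), HXT6 (YDR343C, 1159608 to 1161320) and HXT3 (YDR345C, 1162957 to 1164660) are neighbours on the minus strand of chromosome IV. RGT2 (YDL138W, 213351 to 215642) and SNF3 (YDL194W, 111580 to 114234) lie on the plus strand of chromosome IV. HXT2 (YMR011W, 288079 to 289704) lies on the plus strand of chromosome XIII, and STD1 (YOR047C, 416347 to 417681) on the minus strand of chromosome XV.

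HXT6 and HXT7 are almost the same gene, and the sequence that tells them apart is short. Their coding sequences of 1713 bases were 99.8% identical and differed at 3 bases, written with the HXT6 base first and counted from 1 at the A of the start codon: T1632C, G1666A and T1677C. The stretch that holds all 3, positions 1617 to 1692, is shown for both genes, taken from RefSeq's R64 assembly with the differing bases in capitals (HXT6 at chrIV:1159629-1159704 and HXT7 at chrIV:1154237-1154312, both minus strand).
HXT6: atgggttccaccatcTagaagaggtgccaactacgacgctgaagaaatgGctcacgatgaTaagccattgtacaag
HXT7: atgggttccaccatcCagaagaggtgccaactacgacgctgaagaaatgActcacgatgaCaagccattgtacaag
The first 1631 bases were identical, and 95.1% of all stretches of 50 bases in either gene occurred elsewhere in the genome. Reads from the pair could therefore be told apart over a small part of their length, and the level listed for HXT7 may hold reads of HXT6. Of the 23 values listed for HXT7, 22 were not whole numbers of reads (tolerance 0.02 reads).

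The other transporter genes shared less. Of stretches of 50 bases, 14.9% of those in HXT3, 4.99% in HXT1, 4.05% in HXT5 and 2.50% in HXT4 occurred elsewhere, and 0 of those in HXT2, RGT2, SNF3 and STD1. The longest run that HXT3 shared with HXT6 and HXT7 was 149 bases, and HXT1 shared 119 bases with HXT5. HXT1 and HXT3, the low-affinity pair, shared no run longer than 44 bases, shown here because their read numbers were linked (chrVIII:291112-291155 in HXT1 and chrIV:1163156-1163199 in HXT3, both minus strand, from RefSeq's R64 assembly).
HXT1 and HXT3: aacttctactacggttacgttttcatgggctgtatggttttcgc
Reads were fractional for HXT1 in 13 and for HXT3 in 11 of 25 libraries, and in 10 of the 11 libraries where both were fractional their sum was whole. At 15 min, for example, HXT1 had 37.16 and HXT3 203.84 reads, which sum to 241 reads. All values of HXT2, HXT4, RGT2, SNF3 and STD1 were whole reads. No source used here gives the read length or says how the authors divided reads that fit more than 1 gene. The stretch of 50 bases is a setting, and shares at other lengths were not counted.

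The low-affinity transporter genes HXT3 and HXT1 stayed within a narrow range for most of the course. HXT3 was the most abundant of the 10 genes in every library. It stood at 435 RPM at 0 min (424 reads, with a 95% exact Poisson interval from 395 to 478 RPM that covers counting error only). Its lowest, median and highest levels were 283, 340 and 452 RPM early, 372, 400 and 519 RPM in the middle window and 329, 400 and 708 RPM late. The 3 windows overlapped, and the levels of 708 RPM at 345 min and 545 RPM at 360 min were the highest of the course. The late minus early difference in log2 level was 0.29 (SE 0.13, limma adjusted p = 0.039), under the size limit of 1 set for a call. It was smaller than the shift of 0.45 of the median tested gene, and its sign changed to -0.19 with each library centred on its median and to -0.17 per reads outside ribosomal protein genes.

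HXT1, the gene most typical of growth in high glucose, was at 245 RPM at 0 min (239 reads, 95% interval 215 to 278 RPM). At 15 min it was at 82.4 RPM (37.16 reads, 58.1 to 114 RPM), and at 30 min it was back at 180 RPM. The lowest, median and highest levels were 82.4, 197 and 239 RPM early, 168, 189 and 239 RPM in the middle window and 157, 174 and 330 RPM late. The 15 min library stood alone below the rest of its window, and the late maximum was again the 345 min library. The late minus early difference was 0.06 (SE 0.17, limma adjusted p = 0.755). It turned to -0.10 without the 15 min library, to -0.05 without the 345 min library, to -0.29 without the 15, 345 and 360 min libraries and to -0.43 with centred libraries.

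The low level of HXT1 at 15 min had no counterpart in HXT3, whose level of 452 RPM was the highest of its window. HXT3 exceeded HXT1 by a log2 ratio of 2.46 at 15 min and of 0.49 to 1.35 in the 24 other libraries. This library was the shallowest and had 3453 listed genes, and the part of depth in the ratio was not tested. Reads were divided between the genes here, as given above, and with HXT1 and HXT3 added together before the fit the late minus early difference was 0.20 (SE 0.12).

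**Figure D1:**
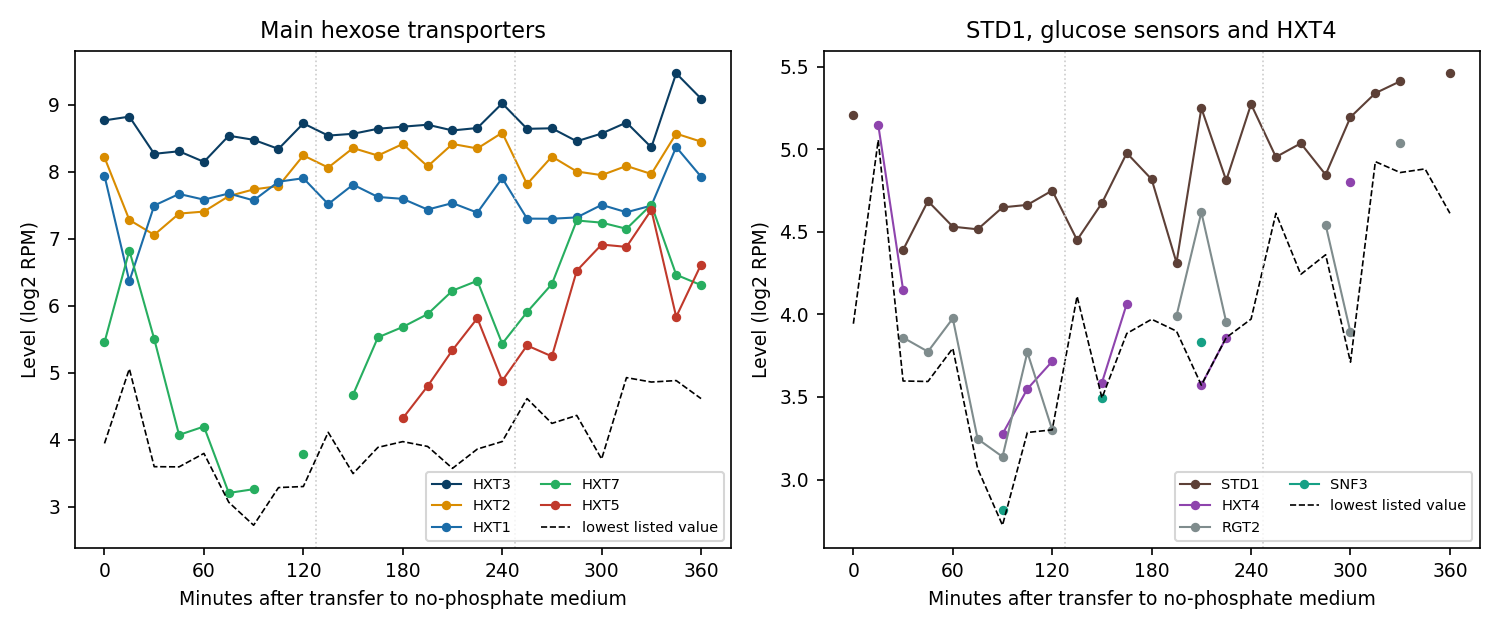
Level (log2 RPM) of each listed gene against minutes after the move to medium without phosphate, 1 point per library; gaps are libraries without a value, the dashed line is the lowest level that library listed, and dotted lines part the windows. HXT3 is highest in every library, HXT7 is at 9.22 RPM at 75 min and at 182 RPM at 330 min, and HXT5 first appears at 180 min.

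HXT2, a higher-affinity transporter gene, was low in hour 1 and higher from hour 2 on. It was at 296 RPM at 0 min (289 reads, 95% interval 263 to 333 RPM), 155 RPM at 15 min and 133 RPM at 30 min. Levels then ran from 166 RPM at 45 min to 303 RPM at 120 min. The lowest, median and highest levels were 133, 184 and 303 RPM early, 267, 326 and 383 RPM in the middle window and 225, 264 and 379 RPM late. Among the early libraries the one at 120 min lay above the lowest middle level, so the early and middle windows overlapped at that library. The middle minus early difference was 0.75 (SE 0.13, limma adjusted p = 3.93e-05) and the late minus early difference 0.57 (SE 0.13, limma adjusted p = 0.000353), both under the size limit. Hour 2 (75 to 120 min) exceeded hour 1 (15 to 60 min) by 0.57 (limma adjusted p = 0.0324), and hour 3 exceeded hour 2 by 0.42 (limma adjusted p = 0.0331).

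HXT4, another glucose-repressed transporter gene, was listed in 10 of 25 libraries and lay close to the floor in most of them. It was listed in 5 early, 4 middle and 1 late library, with levels of 9.69 to 35.5 RPM. The highest, 35.5 RPM at 15 min, rested on 16 reads (95% interval 20.3 to 57.6 RPM), where the floor was 33.3 RPM. At 30 min it was at 17.7 RPM (22 reads, 11.1 to 26.9 RPM). It was not listed at 75 min, where the floor was 8.37 RPM. At 90 min it was at 9.69 RPM (22 reads, 6.07 to 14.7 RPM), below the interval at 15 min. At 300 min it was at 27.9 RPM (32 reads, 19.1 to 39.4 RPM), where the floor was 13.1 RPM. Single libraries thus differed. The falling number of libraries that listed HXT4 ran beside a floor that was higher late, and no change between windows could be read from these values.

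HXT7, a high-affinity transporter gene whose level may hold reads of HXT6, changed most among the 5 genes tested. It was at 43.8 RPM at 0 min (42.7 reads, 95% interval 31.7 to 59.1 RPM) and at 113 RPM at 15 min (51.03 reads, 84.3 to 149 RPM). From there it went to 45.3 RPM at 30 min, 16.8 RPM at 45 min and 9.22 RPM at 75 min, and it was not listed at 105 and 135 min. The pattern was thus a peak in the first library without phosphate, a trough around hour 2 and then a longer climb. The climb ran from 25.5 RPM at 150 min through 82.8 RPM at 225 min to 182 RPM at 330 min (94.03 reads, 147 to 223 RPM). It was broken at 240 min, at 43.2 RPM, and the last libraries were lower, at 88.1 RPM at 345 min and 79.2 RPM at 360 min.

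By window, HXT7 had lowest, median and highest levels of 9.22, 16.8 and 113 RPM in 7 early libraries, 25.5, 51.3 and 82.8 RPM in 7 middle libraries and 59.9, 115 and 182 RPM in 8 late libraries. Apart from 15 min, all listed early levels lay below the lowest late level. The mean log2 level was 4.41 ± 1.31 early (SD, n = 7), 5.68 ± 0.57 in the middle window (n = 7) and 6.77 ± 0.59 late (n = 8). HXT7 rose from the early to the late window by 2.36 (SE 0.42, limma adjusted p = 2.86e-05), a 5.14-fold difference. It rose by 1.28 (SE 0.43, limma adjusted p = 0.0158) from the early to the middle window. The late minus early rise was called under all alternatives tried, at 1.88 with centred libraries and at 2.89 without the 15, 345 and 360 min libraries. The middle minus early rise was no longer called per reads outside ribosomal protein genes, at 0.90, or with a pseudocount of 10 RPM, at 0.89.

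Hour by hour, HXT7 averaged 5.15 ± 1.29 (log2, SD, n = 4) in hour 1, 3.42 ± 0.32 (n = 3) in hour 2, 5.29 ± 0.54 (n = 3) in hour 3 and 5.97 ± 0.42 (n = 4) in hour 4. Hours 5 and 6 averaged 6.68 ± 0.68 and 6.86 ± 0.57 (n = 4 each). Hour 3 exceeded hour 2 by 1.87 (SE 0.56, limma adjusted p = 0.0205), which was called. That call was lost without any 1 of the 75, 90, 165 and 180 min libraries, at 1.77, 1.79, 1.76 and 1.68. The hour 2 minus hour 1 difference of -1.73 (SE 0.53, limma adjusted p = 0.111) was not called, though it was called without the 45 min library, at -2.09, or without the 60 min library, at -2.05.

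HXT5 encodes a transporter of intermediate affinity whose gene is known to be active in slowly growing or starved cells. It was below the floor at 0 min, in all 8 early libraries and at 135, 150 and 165 min. It was then listed in all 13 libraries from 180 to 360 min, at 19.96 RPM at 180 min, 56.2 RPM at 225 min (58 reads, 95% interval 42.6 to 72.6 RPM) and 29.4 RPM at 240 min. Late levels had a lowest of 37.9, a median of 94.9 and a highest of 172 RPM, the last at 330 min (89 reads, 138 to 212 RPM). At 345 min it was at 57.0 RPM (29 reads, 38.2 to 81.9 RPM), below the interval at 330 min, and at 360 min at 97.9 RPM (60 reads, 74.7 to 126 RPM). No early library listed the gene and every late library did.

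Because early values were missing, HXT5 did not enter the main fit, and its difference is given as a bound. Against the floor of 15 reads per library, averaged over the early libraries, the late mean of 6.35 ± 0.78 (log2, SD, n = 8) was at least 6.98-fold higher (2.80 on the log2 scale). Against the highest early floor, that of the shallow 15 min library, it was at least 2.46-fold higher. The lowest late level still exceeded that floor, by 1.14-fold.

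The upstream regions of HXT5 and HXT7 are shown because these were the transporter genes whose listed levels climbed late. The level listed for HXT7 may hold reads of HXT6, so its climb cannot be assigned to HXT7 alone. The HXT5 and HXT7 regions each held 2 copies of CCCCT, the core of the stress response element bound by Msn2 and Msn4. Copies were sought in the 500 bases before the start codon, read on both strands. Such regions were taken before 6019 genes, and 34.0% held CCCCT at least once and 8.12% at least 2 times. In HXT5 the matches, in capitals, read AGGGG and began 472 and 304 bases before the start codon (chrVIII:296738-296927, minus strand). In HXT7 they began 371 and 243 bases before it (chrIV:1156159-1156308, minus strand), and no match overlapped one of another motif searched. Both are from RefSeq's R64 assembly.
HXT5: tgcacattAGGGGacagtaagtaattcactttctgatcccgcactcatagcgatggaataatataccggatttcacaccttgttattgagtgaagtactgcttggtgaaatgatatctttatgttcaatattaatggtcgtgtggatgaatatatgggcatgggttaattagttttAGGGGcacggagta
HXT7: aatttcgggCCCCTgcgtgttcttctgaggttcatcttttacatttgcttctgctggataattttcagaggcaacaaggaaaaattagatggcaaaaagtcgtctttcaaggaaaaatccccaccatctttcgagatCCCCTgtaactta
HXT1, RGT2 and STD1 held 1 copy each, and HXT2, HXT3, HXT4, HXT6 and SNF3 held 0.

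The Rgt1 motif CGGANNA, read on both strands, was found in 42.0% of the regions. HXT3 held 5 copies, a number reached by 0.133% of regions, and HXT1 held 4, reached by 0.548%. HXT2, HXT4 and STD1 held 2 copies, reached by 11.5% of regions, HXT5 and HXT6 held 1, and HXT7, RGT2 and SNF3 held 0. The stretch of the HXT3 region from 450 to 301 bases before the start codon is shown, with the 5 matches in capitals, because HXT3 was the most abundant and among the steadiest of the genes (chrIV:1164961-1165110, minus strand, from RefSeq's R64 assembly).
HXT3: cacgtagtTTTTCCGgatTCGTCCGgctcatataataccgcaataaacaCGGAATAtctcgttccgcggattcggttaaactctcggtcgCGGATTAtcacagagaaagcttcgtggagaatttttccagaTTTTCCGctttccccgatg
CCCCNC, the core of sites for the glucose repressor Mig1, was found in 23.1% of regions, 3 times in HXT4, 2 times in HXT1, HXT2 and HXT6, and 1 time in HXT7. One of the HXT1 matches, 157 bases before the start codon, overlaps the CCCCT of that gene. CACGTG, the core of sites for the phosphate regulator Pho4, was found in 6.21% of regions and before 0 of the 10 genes. These matches are letters in a window, and binding was not measured.

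The sensor genes had few reads wherever they were listed, and most libraries listed no value for SNF3. SNF3, the sensor for low glucose, was listed in 3 of 25 libraries, at 7.05 RPM at 90 min, 11.3 RPM at 150 min and 14.3 RPM at 210 min. RGT2, the sensor for high glucose, was listed in 13 libraries, 7 early at 8.81 to 15.7 RPM, 3 in the middle window at 15.5 to 24.6 RPM and 3 late at 14.8 to 32.9 RPM. The highest RGT2 level, at 330 min, rested on 17 reads (95% interval 19.2 to 52.7 RPM). Neither sensor gene was listed at 0 min, where the floor was 15.4 RPM, and neither entered the tests.

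STD1, whose product acts with Rgt1 and Mth1 in repression of HXT genes, was at 36.9 RPM at 0 min (36 reads, 95% interval 25.9 to 51.1 RPM). It lay at 21.0 to 26.9 RPM in 7 early libraries, at 19.9 to 38.7 RPM in 8 middle libraries and at 28.8 to 44.1 RPM in 7 late libraries. The listed early and late levels did not overlap, but STD1 was missing at 15 min, where the floor of 33.3 RPM lay above all other early levels. It was also missing at 345 min, where the floor of 29.5 RPM lay above all listed early levels, so the windows may overlap. The late minus early difference was 0.58 (SE 0.15, limma adjusted p = 0.00106), under the size limit, and 0.05 with centred libraries.

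Of the 5 genes tested, late minus early, 1 was called higher (HXT7) and 0 lower, where over all 4343 tested genes 13.8% were called higher and 3.41% lower. Middle minus early, 1 of 5 was called higher (HXT7), against 4.51% of all genes, and 0 lower, against 2.81%. Late minus middle, limma called 0 of 5, against 0.714% higher and 0.0921% lower of all genes, and 2 of 5, HXT7 at 1.09 and STD1 at 0.36, had an unadjusted p under 0.05. HXT7 was called there without trend and robust estimation, at 1.09. The median difference of the 5 genes was 0.57 between the late and early windows, 0.22 between the middle and early windows and 0.07 between the late and middle windows, against 0.45, 0.28 and 0.18 over all genes.

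Between successive hours, calls of the members were again few. Hour 2 minus hour 1, limma called 0 of 5 genes, against 0.161% higher and 0.115% lower of all genes. An unadjusted p under 0.05 was found for 3 of 5, and the share of all genes with one was not counted. Of these, HXT1 and HXT2 were higher, at 0.47 and 0.57, and HXT7 was lower, at -1.73. Hour 3 minus hour 2, 1 of 5 was called higher (HXT7), against 2.51% of all genes, and 0 lower, against 0.0461%. Hour 4 minus hour 3, limma called 0 of 5, against 0.898% higher and 2.56% lower, and 0 of 5 had an unadjusted p under 0.05. Hour 5 minus hour 4 and hour 6 minus hour 5, limma called 0 of 5 members and 0% of all genes in each direction. Of the 5, HXT2 had an unadjusted p under 0.05 hour 5 minus hour 4, where it was lower, at -0.36. Between hours 5 and 6, 0 of 5 had one.

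Over the whole course, a spline of time in limma called 3 of 5 genes, against 32.2% of all genes. The fitted log2 level of HXT7 had a range of 3.13 (limma adjusted p = 7.02e-06), that of HXT2 1.28 (limma adjusted p = 9.14e-08) and that of HXT1 1.04 (limma adjusted p = 0.00105). STD1 and HXT3, with fitted ranges of 0.997 and 0.58, were under the size limit. The HXT1 range rested on the ends of the course. It was 0.61 without the 15 min library, 0.84 without that at 345 min, 0.94 without that at 360 min and 0.31 without all 3, none of which was called.

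**Figure D2:**
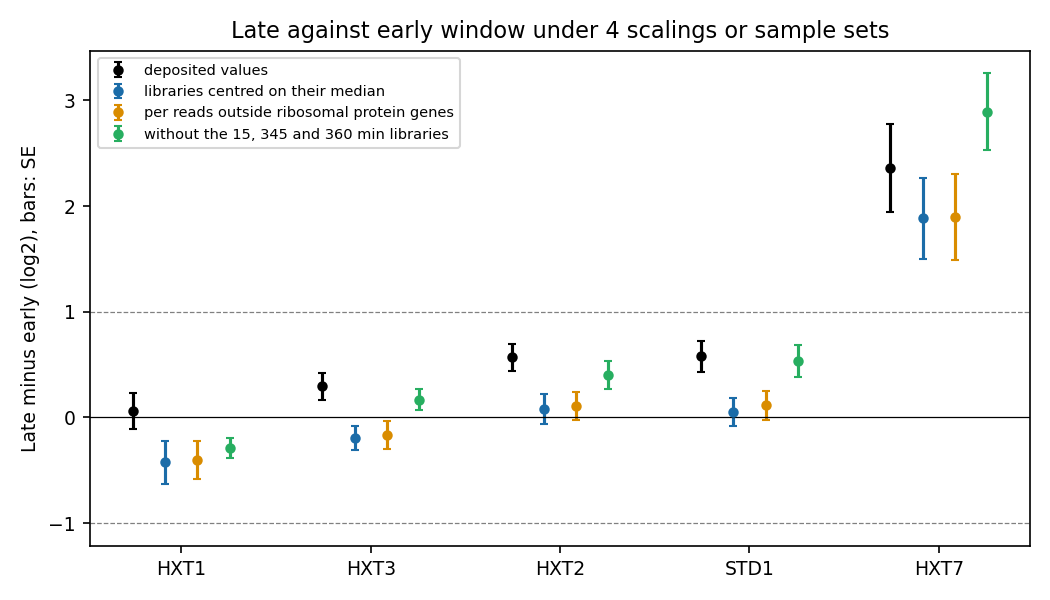
Late minus early difference in log2 level of the 5 tested genes, as points with SE bars from limma, for the deposited values, for libraries centred on their median, per reads outside ribosomal protein genes, and without the 15, 345 and 360 min libraries; dashed lines mark the size limit of 1. HXT7 lies above 1 in all 4, while HXT1 and HXT3 cross 0.

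Per length, as RPKM (RPM per kilobase of coding sequence), HXT3 led at every stage, with 255 at 0 min and medians of 199 early, 235 in the middle window and 235 late. HXT2 came next at 0 min, at 182, and in the middle and late windows, at medians of 201 and 162. HXT1 and HXT2 had close early medians, at 115 and 113 with overlapping ranges of 48.1 to 140 and 81.9 to 186, and HXT1 was at 110 in the middle window and 102 late. HXT7 ran at 25.6 at 0 min and at medians of 9.81, 30.0 and 67.1, and HXT5 at medians of 16.5 in the middle window and 53.3 late. HXT7 and HXT5 had overlapping late ranges, of 35.0 to 106 and 21.3 to 96.9. STD1, at medians of 18.8, 21.1 and 27.5, lay above HXT4, at 7.59, 7.67 and 16.1, and above RGT2, at 5.96, 6.94 and 10.2, whose medians cover only the libraries that listed them.

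The make-up of transporter reads differed along the course. HXT1 to HXT7 summed to 1020 RPM at 0 min, to 662 to 991 RPM early, 822 to 1214 RPM in the middle window and 884 to 1562 RPM late. HXT3 took 42.6% of this sum at 0 min and 45.4% ± 3.96 early, 41.1% ± 2.76 in the middle window and 38.7% ± 5.59 late (SD, n = 8 each). HXT1 took 24.03% at 0 min, 9.83% at 15 min and 24.8% ± 6.36 over the early window, then 19.6% ± 2.37 and 17.1% ± 1.98. HXT2 took 29.1% at 0 min, 24.8% ± 4.15 early, 31.9% ± 1.67 in the middle window and 25.2% ± 2.67 late. The share of HXT2 was thus highest in the middle of the course and that of HXT1 lowest at 15 min. HXT7 took 4.29% at 0 min, 13.5% at 15 min, 3.64% ± 4.45 over the early window and 10.6% ± 4.37 late, and HXT5, 0 early as unlisted, took 8.21% ± 4.10 late. At 330 min HXT7 and HXT5 reached 16.4% and 15.5%, and HXT3 was at 29.6%, its lowest share. These shares do not depend on the scaling of a library and were not tested.

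**Figure D3:**
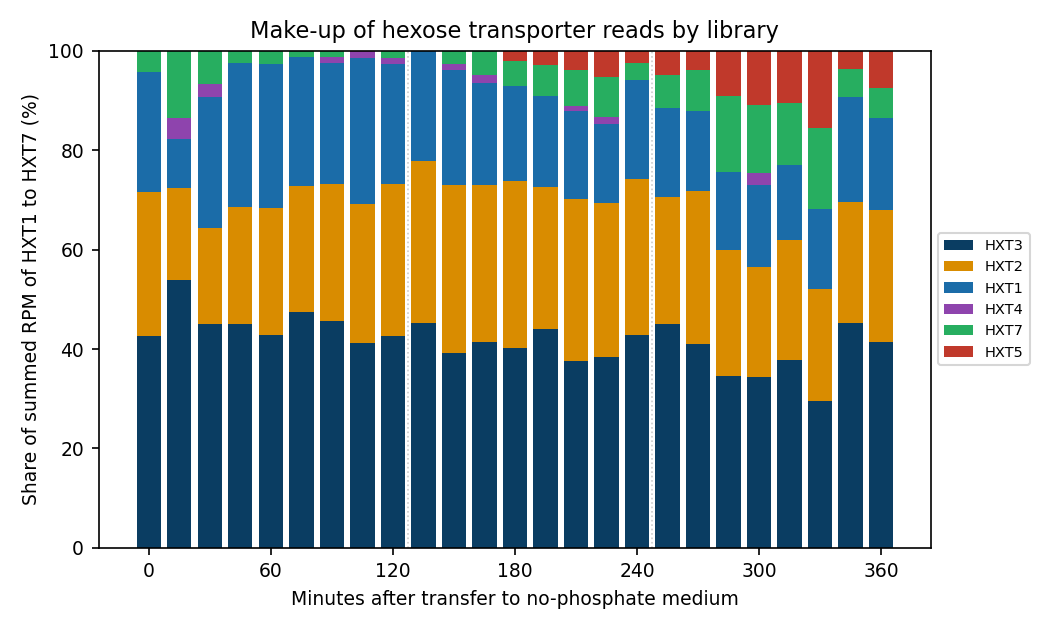
Share (%) of each gene in the summed RPM of HXT1 to HXT7, 1 bar per library against minutes after the move; a gene without a value counts as 0. HXT7 takes 13.5% at 15 min and 16.4% at 330 min, and HXT5 appears from 180 min and takes 15.5% at 330 min.

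The late climb of HXT7 and HXT5 was broken in the same libraries. Relative to HXT3, the log2 ratio of HXT7 was -3.31 at 0 min, -1.998 at 15 min, -5.33 at 75 min, -2.28 at 225 min and -0.85 at 330 min. It was -3.59 at 240 min, -3.00 at 345 min and -2.78 at 360 min. The ratio of HXT5 to HXT3 took the same steps, from -2.84 at 225 min to -4.14 at 240 min and from -0.93 at 330 min to -3.63 at 345 min and -2.48 at 360 min. HXT3 itself was high in these 3 libraries, at 519, 708 and 545 RPM, and HXT1 was at 239, 330 and 243 RPM. Ribosomal protein genes took 9.28% of reads at 225 min and 10.6% at 240 min, and 7.47% at 330 min against 11.2% at 345 min and 11.1% at 360 min. The part of these libraries' make-up in the breaks was not tested.

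**Figure D4:**
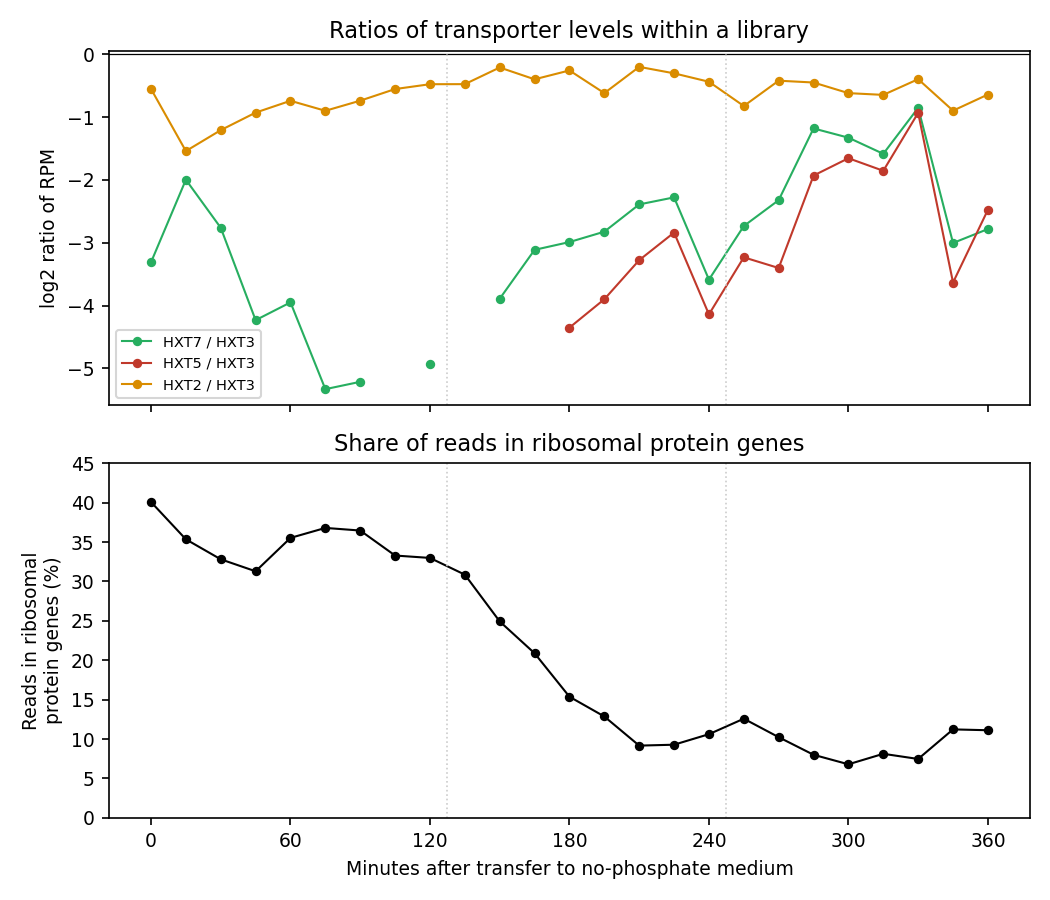
Upper panel, log2 ratio of HXT7, HXT5 and HXT2 to HXT3 within each library against minutes after the move; lower panel, ribosomal protein genes as a share (%) of the reads of the same libraries. The ratios of HXT7 and HXT5 peak at 330 min, at -0.85 and -0.93, and are lower at 240 min than at 225 min and at 345 and 360 min than at 330 min.

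The other 11 genes of the HXT family, GAL2 among them, were mostly below the floor. Values were listed for 4 of them, HXT14 in 20 libraries at 15.4 to 33.8 RPM, GAL2 in 4, HXT11 in 2 and HXT12 in 1, and none entered the tests. Partners of the members in the Rgt1 pathway were mostly listed. Of 11 genes, 9 were tested, and late minus early limma called 0, against 13.8% higher and 3.41% lower of all genes. An unadjusted p under 0.05 was found for 7, all 7 higher, and the share of all genes with one was not counted. With centred libraries 4 of the 9 had one, of which 1 was higher. RGT1, the repressor of HXT genes, differed by 0.75, the glucose-induced repressor gene MIG2 by 0.98 and the casein kinase gene YCK1 by 0.66. The median over the 9 genes was 0.36, against 0.45 over all genes. MTH1, the partner of STD1, was listed in 3 libraries, at 12.8 to 22.6 RPM, and MIG3 in 8, of which 6 were early and 0 late. The listed levels of MIG3 were 12.1 to 18.2 RPM and the late floors 13.1 to 30.4 RPM, so no change of MIG3 or MTH1 could be read.

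Hexokinases trap the glucose that the transporters bring in, and of 4 genes of glucose phosphorylation, late minus early, 2 were called higher and 0 lower, against 13.8% higher and 3.41% lower of all tested genes. HXK1, the hexokinase gene repressed by glucose, was at 110 RPM at 0 min and had medians of 247 RPM early, 1076 RPM in the middle window and 747 RPM late. It rose by 1.44 (limma adjusted p = 5.82e-05) late minus early and by 1.92 (limma adjusted p = 7.53e-06) middle minus early. GLK1, the glucokinase gene, rose by 1.45 and 1.40. HXK2, the hexokinase gene of growth in high glucose, differed by -0.54 (SE 0.10, limma adjusted p = 2.63e-05), under the size limit. With centred libraries HXK1 and GLK1 were under the limit, at 0.95 and 0.96, and HXK2 was called lower, at -1.02. HXK1 was low in the same libraries as HXT7 and HXT5, with its lowest level of hour 4 at 240 min, where the median of that hour was 1256 RPM, and its lowest late level at 345 min, 301 RPM.

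Of 10 tested genes of glucose repression through Snf1 and Mig1, 3 were called higher late minus early and 0 lower, where 13.8% of all tested genes were called higher and 3.41% lower. They were the repressor genes MIG1, NRG1 and NRG2, at 1.04, 1.18 and 1.01, and the list median was 0.50. With centred libraries none of the 3 was called, and HXK2, also on this list, was called lower. Of 8 tested glucose-repressed enzyme genes, 2 were called higher and 0 lower, against the same shares of all genes, CYB2 (lactate dehydrogenase) at 1.24 and GUT2 (glycerol-3-phosphate dehydrogenase) at 1.10, the median was 0.42, and neither was called with centred libraries. ICL1, encoding isocitrate lyase of the glyoxylate cycle, differed by 0.84. Of 14 tested genes of glucose sensing through cAMP and protein kinase A, 8 were called higher and 0 lower, again against 13.8% and 3.41%, with a list median of 1.03. PDE1, a cAMP phosphodiesterase gene, rose by 1.54, the kinase subunit gene TPK2 by 1.24 and GPA2, encoding the G protein behind the Gpr1 receptor, by 1.15. With centred libraries 1 of these, PDE1, was still called, at 1.05.

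For each tested gene, the genes with the most similar course were sought among those listed in all 24 libraries without phosphate, by the root mean square difference of log2 levels once each profile had mean 0. For HXT7, over 22 libraries, they were BDH2, SPI1 and ALD4, with differences of 0.48, 0.50 and 0.50, where the median candidate differed by 1.16 and HXT7 itself had an SD of 1.27. SPI1 encodes a cell wall protein and ALD4 a mitochondrial aldehyde dehydrogenase. For HXT2, over 24 libraries, they were SUN4, HIS1 and TOS1, at 0.20, 0.22 and 0.22. For HXT1 they were AUR1, NCL1 and HIP1, at 0.21 to 0.24, and for HXT3 ADE5_7, DIS3 and RHR2, at 0.17 to 0.19. For STD1, over 22 libraries, EPS1, AIM38 and GCN4 differed by 0.16, 0.18 and 0.18. HXT2, HXT1, HXT3 and STD1 varied little themselves, with SDs of 0.28 to 0.41, so that a small difference marks a profile close to flat as well as a similar one.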

How the data were processed

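Per the submitters' processing notes, the authors used Bowtie and genome build R64. The counter, its annotation and whether strand was used are not stated in these sources. The deposited log2 values are levels, although the design text speaks of normalization to the first time point: their antilogs sum to 1000000 in every library, so they were read as log2 RPM. With the lowest listed level of each library taken as 15 reads, multiplying back gave whole reads for 93.6% to 94.4% of values (tolerance 0.02), so no count model was fitted. The table also holds 51 unnamed rows without values.

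Genes with values in at least 20 of 24 libraries without phosphate were tested with limma 3.58.1 in R 4.3.3 (trend, robust, no pseudocount, two-sided), checked on simulated data. A call needed a Benjamini-Hochberg adjusted p under 0.05 over all tested genes and an absolute log2 difference, or fitted range of a spline with 3 degrees of freedom, of at least 1. Unadjusted p-values under 0.05 were counted in members and lists, not over all genes. Missing values were left out of means. Members and lists were chosen with earlier results of these data known. Named beside the members are MTH1, RGT1, MIG1, MIG2, MIG3, HXK1, HXK2 and GLK1, up to 3 tested genes per list with the largest late minus early difference, and the 3 most similar profiles per tested member. Lists were Rgt1 partners, glucose repression, phosphorylation, cAMP and protein kinase A, glucose-repressed enzymes, other HXT genes and mating-type markers. The 0 min library was not tested. Alternatives were other scalings, filters, pseudocounts and sets of libraries.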

Additional observations from a re-analysis of the deposited data

Results flagged for a closer look

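In 20 groups of libraries (a member in a window), the highest or lowest library was set against the rest of its group, and in 2 it stood apart by Dixon's 95% limit, where chance gives about 1 in 20. HXT1 at 15 min had a log2 level of 6.37, below the 7 other early libraries at 7.49 to 7.90, with a gap of 0.735 of the window's range. HXT3 at 240 min had a log2 level of 9.02, above the 7 other middle libraries at 8.54 to 8.70, with a gap of 0.665 of the range.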

How the results depend on the processing

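HXT7 late minus early was called under every alternative tried. With libraries centred on their median, HXT1 and HXT3 turned to -0.43 and -0.19 late minus early. Middle minus early, HXT1, HXT3 and STD1 turned to -0.16, -0.022 and -0.082, and late minus middle HXT3 turned to -0.17. Per reads outside ribosomal protein genes, HXT1 and HXT3 turned to -0.40 and -0.17 late minus early, HXT1, HXT3 and STD1 to -0.25, -0.11 and -0.11 middle minus early, and HXT3 to -0.057 late minus middle. Without the 15, 345 and 360 min libraries, HXT1 turned to -0.29 late minus early and -0.078 middle minus early, and HXT3 to -0.11 late minus middle. None of these turned values reached the size limit.

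Members called higher numbered 0 middle minus early, and 0 hour 3 minus hour 2, both per reads outside ribosomal protein genes and with the pseudocount, which shrinks differences of low genes by construction. With missing values at the floor they numbered 2 late minus early, 2 middle minus early, 2 late minus middle and 1 hour 4 minus hour 3, and the spline called 6, where 12.8%, 3.85%, 0.87%, 0.929% and 32.3% of all 5060 genes so fitted were called. HXT4, HXT5 and RGT2 enter that fit with many values set to the floor, HXT5 only through libraries from 180 min on, so nothing is read from their calls. Late minus middle, 1 was called with no filter, and this was HXT5, which did not enter the main fit. It had values there only in libraries from 180 min on, so nothing is read from that call either. Without trend and robust estimation 1 was called, and 1 without the 15, 345 and 360 min libraries. Otherwise the cause was not tested. Without HXT6 and HXT7 in the sum, late shares were 19.1% for HXT1 and 28.1% for HXT2.

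Leaving out each library in turn, HXT1 ranged from -0.10 to 0.12 late minus early, from -0.078 to 0.14 middle minus early and from -0.14 to 0.019 late minus middle, and HXT3 from -0.033 to 0.13 late minus middle. Members called higher ranged from 0 to 1 late minus middle and from 0 to 1 hour 3 minus hour 2, members called lower from 0 to 1 hour 2 minus hour 1, and the spline called 2 to 4. Late minus middle, HXT7 was called without the 15, 225 or 255 min library, at 1.09, 1.20 and 1.21. STD1 passed the spline's limit without the 45, 135, 150, 210 or 240 min library, at 1.01 to 1.09. HXT6 and HXT7 summed gave no other value than HXT7, since HXT6 had none, and was not run. HXT1 and HXT3 summed was chosen after seeing the data.

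No paired analysis was possible because the course holds 1 library per time point and the labels give no replicate numbers. Depth limits HXT4, HXT5, RGT2 and SNF3 most: their early or late levels lie near the floor of 15 reads, which stands higher in RPM in the shallower late libraries. The median tested gene shifted by 0.45 late minus early while the ribosomal protein share fell. The late minus early differences of HXT2, HXT3 and STD1, of like size, cannot be told apart from that shift. Middle minus early, the difference of HXT2 was larger, at 0.75 against 0.28 for the median tested gene.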
